A study of Rattus norvegicus with 119 samples.

Results

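Levels of 301 miRNAs in bladder urothelium, the epithelium that lines that organ, were compared between Sprague-Dawley rats given pioglitazone and rats given rosiglitazone. The comparison holds the 40 arrays, of 119 in the series, whose names carry pioglitazone 63 or rosiglitazone together with day 3 or day 90. Day 28 was left out. The first drug was pioglitazone hydrochloride at 63 mg/kg/day and the second rosiglitazone maleate at 10 mg/kg/day, so the treatments were compared as dosed and not at a matched dose. Each drug was given by mouth once a day, in a volume of 10 mL/kg, to females and to males for 3 or for 90 days, and tissue was taken a day after the last dose. That gave 4 sex and day combinations and 8 groups of 5 arrays, 20 arrays for each drug. For each sex and group, 10 rats were dosed and urothelium of 5 was profiled, so each array stands for a separate rat. The 20 vehicle arrays of the same days, from rats given 0.5% methylcellulose, are used below as a reference level and in a separate comparison with each drug. All groups share strain, route and vehicle. The animals' age is not given in the sources used here. After the bladder was opened, a scalpel was used to scrape off the urothelium, RNA was extracted from the frozen scrapings, and 0.1 ug of it was labelled with Cy3. Values are the deposited log2 values, so a difference is a log2 difference, written as pioglitazone 63 minus rosiglitazone unless another comparison is named. The labels mark none of the 40 arrays as failing quality control.

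Both drugs are thiazolidinediones, which bind and activate PPAR gamma, a nuclear receptor that drives adipocyte differentiation and is also present in urothelium. They share the thiazolidinedione ring and a benzyl group with an ether oxygen on its phenyl ring. They differ in the tail, which ends in an ethyl-substituted pyridine in pioglitazone and in a pyridine joined through a methylated amine in rosiglitazone. A miRNA is a short RNA that pairs through its seed with messenger RNAs and lowers their translation or stability, and an asterisk marks the strand of a hairpin that older names call minor.

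The mature sequences below belong to the miRNAs described in most detail. They are 14 of the 20 named miRNAs (the 10 higher and 10 lower with pioglitazone that had the smallest p), as matched by name in the RefSeq table, and let-7e, whose arrays did not overlap between the drugs in females at day 3. They are the rat sequences of RefSeq on the GRCr8 assembly, read 5′ to 3′, with the seed, bases 2 to 8, in capitals. Arms were taken from the miRNA names and not from the probes.
miR-29c*, on chr13:109099374-109099395, plus strand: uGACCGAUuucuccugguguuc
miR-324-5p, on chr10:55233378-55233400, plus strand: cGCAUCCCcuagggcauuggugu
miR-101a, on chr5:121081691-121081711, minus strand: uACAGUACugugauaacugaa
miR-365, on chr10:65184271-65184292, plus strand: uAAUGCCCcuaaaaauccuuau
miR-345-5p, on chr6:133518418-133518438, plus strand: uGCUGACCccuaguccagugc
let-7i, on chr7:60527935-60527956, minus strand: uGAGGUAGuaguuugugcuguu
let-7e, on chr1:67350243-67350264, plus strand: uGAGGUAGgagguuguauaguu
miR-27a, on chr19:40859614-40859634, minus strand: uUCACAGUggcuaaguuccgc
miR-222, on chrX:6022682-6022702, plus strand: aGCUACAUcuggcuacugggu
miR-144*, on chr10:63459409-63459431, plus strand: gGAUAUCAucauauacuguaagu
miR-451, on chr10:63459585-63459606, plus strand: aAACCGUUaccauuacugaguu
miR-223, on chrX:65151450-65151470, plus strand: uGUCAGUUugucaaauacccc
miR-487b, on chr6:134562939-134562960, plus strand: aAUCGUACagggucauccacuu
miR-376b-3p, on chr6:134558913-134558933, plus strand: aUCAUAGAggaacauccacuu
miR-142-5p, on chr10:73055119-73055139, plus strand: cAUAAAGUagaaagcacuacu
Only let-7i and let-7e share a seed among these 15, and 9 mature miRNAs in the RefSeq table carry it. The seed of miR-222 is also that of miR-221, the seed of miR-27a is also that of miR-27b, and the seed of miR-101a is also that of miR-101b.

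Arrays of low overall level stood apart in both drug groups and have to be known before any difference is read. Values in the 40 arrays ran from 2.82 to 16.24. Array medians ran from 3.86 to 5.56 with pioglitazone (median 5.44) and from 3.80 to 5.57 with rosiglitazone (median 5.38). In 8 arrays the median was under 4.9, at most 4.79, while in the other 32 it was at least 5.00. These 8 arrays were 4 of each drug: replicates 3 and 5 of the pioglitazone females at day 3, replicates 4 and 5 of the pioglitazone males at day 90, replicates 3 and 4 of the rosiglitazone males at day 3, and replicate 3 of the rosiglitazone females and of the rosiglitazone males at day 90. They are unevenly spread over sex and day: 2 pioglitazone arrays and 0 rosiglitazone arrays in females at day 3, 0 and 2 in males at day 3, 0 and 1 in females at day 90, and 2 and 1 in males at day 90. In the 8 arrays 73 miRNAs were lower by more than 1 than in the others and 10 were higher by more than 1, and the red cell miRNA miR-451 was lower by 4.47. The mean of the array medians differed between the drugs by -0.01 (two-sided permutation test with labels shuffled within sex and day, 100000 resamples, p = 0.930). Within the combinations the group means of the medians lay on different sides. In females at day 3 they were 5.11 with pioglitazone and 5.45 with rosiglitazone, and in males 5.42 and 5.15. At day 90 they were 5.42 and 5.14 in females and 4.73 and 5.00 in males. Correlations between pairs of the 40 arrays ran from 0.668 to 0.995, and 0 pairs were identical.

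**Figure D1:**
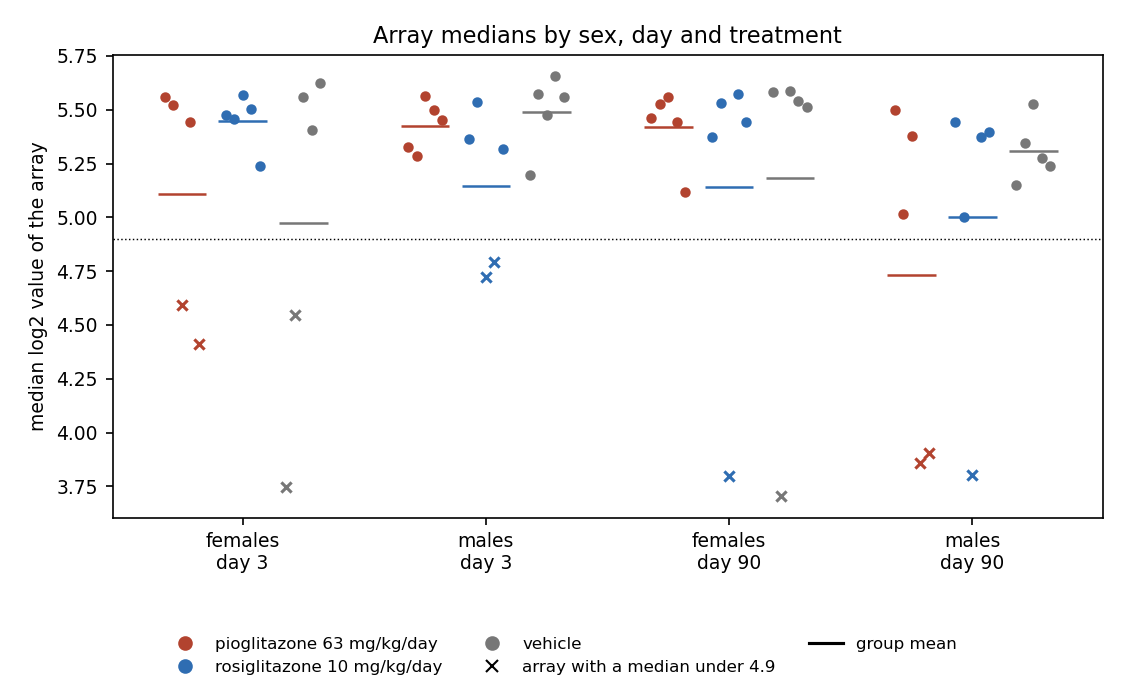
Median log2 value of each array (vertical axis, log2 value) by sex and day (horizontal axis), with pioglitazone 63, rosiglitazone and vehicle in separate columns, crosses for arrays with a median under 4.9 (dotted line) and short bars for group means. The 8 low arrays of the drug groups fall 4 to each drug but unevenly over sex and day, and 3 vehicle arrays are low too.

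The scrapings carried epithelial miRNAs in every group, and muscle miRNAs varied widely from array to array. Summed over the 13 epithelial miRNAs, which hold the miR-200 family, miR-203, miR-205 and the miR-183 cluster, the log2 level ran from 13.27 to 16.10 with pioglitazone and from 12.81 to 16.19 with rosiglitazone. The 9 muscle miRNAs, among them miR-1, miR-133a, miR-143 and miR-145, summed to between 10.25 and 16.48 with pioglitazone (median 14.40) and between 9.0 and 16.49 with rosiglitazone (median 12.41). Sums of the 3 red cell miRNAs ran from 5.35 to 10.67 with pioglitazone and from 5.39 to 11.80 with rosiglitazone, and those of the 5 leukocyte miRNAs from 8.62 to 10.13 and from 8.24 to 10.91. Of all these lists only miR-183* had a mean under 4, close to the lowest values measured. In bulk tissue of this kind, fewer cells of a type and less RNA per cell cannot be told apart.

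Over both days and both sexes, no miRNA differed between the drugs past the threshold. limma, fitted to the 40 arrays with day and sex as blocks, called 0 of 301 miRNAs at a Benjamini-Hochberg adjusted p under 0.05 (percent called 0), and the lowest adjusted p was 0.955. At an unadjusted p under 0.05 stood 7 miRNAs, 5 higher and 2 lower with pioglitazone, or 2.33% of those tested. The 301 differences ran from -1.04 for miR-451 to 1.11 for the smooth muscle miRNA miR-145, with a median of 0.02 and a median size of 0.15. The 20 values of each drug overlapped for all 301 miRNAs. A 95% interval typically spanned the difference ± 0.46 (median over miRNAs). It lay within -1 to 1 for 235 of 301 miRNAs, and for the other 66 a difference beyond 1 lay inside it. Without the 8 low arrays limma again called 0 miRNAs (percent called 0), 11 had an unadjusted p under 0.05 (3.65%), and 266 intervals lay within -1 to 1.

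Among the miRNAs higher with pioglitazone, miR-29c* had the smallest p. It comes from the opposite strand of the miR-29c hairpin, whose main strand represses collagens and other matrix proteins. With pioglitazone it ran from 5.27 through a median of 6.51 to 7.86, and with rosiglitazone from 4.72 through 6.08 to 7.51. The groups overlapped over most of their range. Means were 6.56 ± 0.67 and 6.05 ± 0.74 (SD, n = 20 each), and the difference was 0.51 (SE 0.19, 95% interval 0.12 to 0.91; limma adjusted p = 0.955). It was above 0 in 4 of 4 sex and day combinations, at 0.54 in females and 0.57 in males at day 3 and 0.22 and 0.72 at day 90. Vehicle arrays averaged 6.04 ± 1.01 (SD, n = 20), near the rosiglitazone mean. It was 0.35 when the low arrays were left out. The main strand, miR-29c, had a difference of 0.19 (SE 0.13).

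miR-365, which together with miR-193 has been described in brown adipocyte differentiation in mouse, was also among the higher ones. Its values ran from 10.59 through 11.46 to 12.26 with pioglitazone and from 8.60 through 11.02 to 12.65 with rosiglitazone. The rosiglitazone range enclosed the pioglitazone range. A difference of 0.37 (SE 0.18, 95% interval 0.01 to 0.74; limma adjusted p = 0.955) was unequal over the combinations, at 1.12 and 0.10 in females and males on day 3 and at 0.05 and 0.21 on day 90. It was 0.46 without the low arrays. In those females the 5 pioglitazone arrays read 10.59, 11.87, 11.17, 11.50 and 11.59, and the 5 rosiglitazone arrays 10.63, 11.25, 10.24, 10.39 and 8.60. The lowest rosiglitazone array lay far under the other 4, and the groups overlapped.

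miR-324-5p, described as a repressor of Hedgehog signalling, ran from 7.05 through 7.99 to 9.17 with pioglitazone and from 7.26 through 7.80 to 8.64 with rosiglitazone. Its difference was 0.33 (SE 0.15), at 0.89 and 0.63 in females at day 3 and males at day 90 and at 0.11 and -0.31 in males at day 3 and females at day 90. Females at day 3 held 2 low arrays with pioglitazone and 0 with rosiglitazone, and males at day 90 held 2 and 1. miR-324-5p was higher by 0.45 in the low arrays than in the others, and their part in its difference was not tested. Without the low arrays the difference was 0.22.

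miR-101a, known for repressing the chromatin regulator Ezh2, ran from 8.65 through 9.44 to 10.74 with pioglitazone and from 5.94 through 9.08 to 10.66 with rosiglitazone. The rosiglitazone minimum of 5.94 was replicate 3 of the males at day 90, a low array, and without the 8 low arrays the difference of 0.52 (SE 0.24) became 0.25. Both let-7i and miR-27a were bright, and each had single rosiglitazone arrays far from the rest of their group. let-7i, of the let-7 family that restrains proliferation, ran from 12.05 to 13.38 with pioglitazone and from 10.53 to 13.09 with rosiglitazone, with a difference of 0.23 (SE 0.13). The minimum of 10.53 was that same array, and the difference was 0.14 without it and 0.14 without all 8 low arrays. miR-27a, which represses Pparg messenger RNA and adipogenesis, ran from 11.40 to 12.33 and from 10.83 to 12.28, with a difference of 0.18 (SE 0.11) and a 95% interval of -0.04 to 0.41.

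The other 4 higher miRNAs were miR-99a*, miR-345-5p, miR-331 and miR-222. miR-99a*, from the hairpin next to let-7c, had a difference of 0.21 (SE 0.10). miR-345-5p had 0.45 (SE 0.24), above 0 in 4 of 4 combinations, at 0.34 to 0.57. miR-331 had 0.39 (SE 0.22). miR-222, which represses the cell cycle inhibitor p27, had the largest of the 10, 0.69, with the largest error (SE 0.42), and ran from -0.87 in females at day 90 to 2.04 in males at day 90. It was higher by 1.39 in the low arrays than in the others.

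Of the 10 lower miRNAs chosen by p, the 4 of blood cells had the largest differences. miR-144*, from the red cell hairpin next to miR-451, ran from 3.25 through 3.82 to 4.85 with pioglitazone and from 3.60 through 4.22 to 5.78 with rosiglitazone. These values are close to the lowest on the arrays, where differences are compressed. Means were 3.94 ± 0.45 and 4.31 ± 0.54 (SD, n = 20 each), and the difference of -0.38 (SE 0.16; limma adjusted p = 0.955) was under 0 in 4 of 4 combinations. Vehicle arrays averaged 4.17 ± 0.54 (SD, n = 20), between the drugs. The red cell miRNA miR-451 itself varied far more, from 3.38 through 7.79 to 10.34 and from 3.53 through 8.57 to 11.48. Its difference of -1.04 had an SE of 0.72 and ran from -3.69 in females at day 3 to 1.09 in females at day 90.

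miR-223, a miRNA of neutrophils and other myeloid cells, ran from 5.53 through 7.12 to 8.53 with pioglitazone and from 6.89 through 7.31 to 10.01 with rosiglitazone. The difference was -0.53 (SE 0.25, 95% interval -1.03 to -0.04; limma adjusted p = 0.955) and under 0 in 4 of 4 combinations, from -0.98 to -0.16. The upper end was set by single rosiglitazone arrays, at 9.74 in females at day 3, 8.80 in females at day 90 and 10.01 in males at day 90, of which the last 2 are low arrays. Leaving out the low arrays gave -0.36. miR-142-5p, of the hematopoietic miR-142 hairpin, had -0.57 (SE 0.33). In females at day 3 its pioglitazone arrays read 4.80, 5.49, 3.53, 3.92 and 3.47 and its rosiglitazone arrays 6.49, 5.48, 5.33, 5.80 and 6.84. The difference changed sign in males at day 3, at 0.73, and miR-142-5p was lower by 1.77 in the low arrays than in the others. Over both days it was -0.64 without the low arrays. Its partner strand miR-142-3p had a difference of 0.15 (SE 0.22), in the opposite direction.

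**Figure D2:**
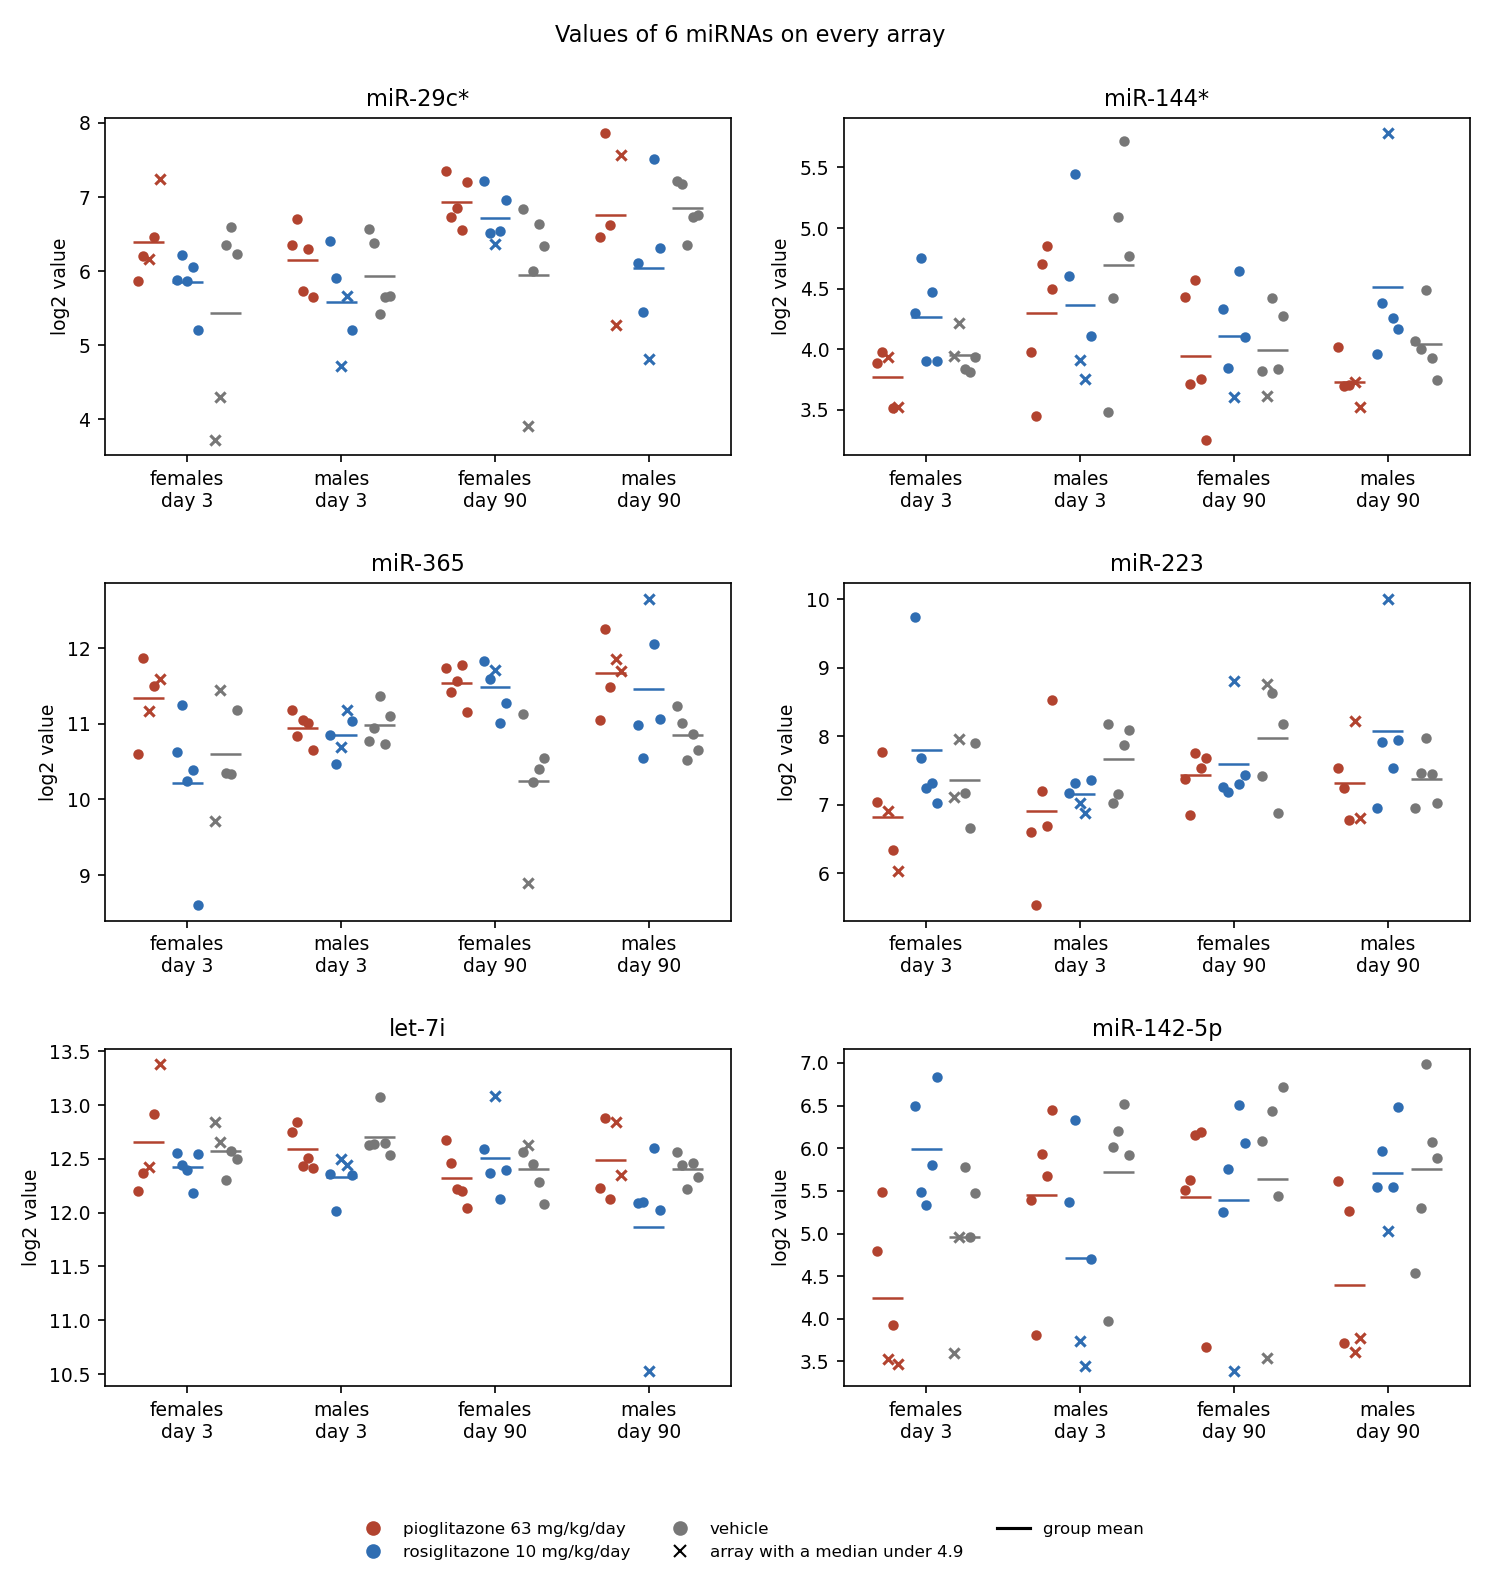
Log2 value on every array (vertical axes) of 3 miRNAs higher with pioglitazone 63 (left) and 3 lower (right), by sex and day (horizontal axes), with group means as short bars and low-median arrays as crosses. The drugs overlap in each of the 6 panels as a whole, and single arrays such as the rosiglitazone male at day 90 with a let-7i value of 10.53 pull several group means.

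Of the remaining 6 lower miRNAs, 5 had drug means between 3.52 and 4.40, near the floor, and miR-196a had means of 5.93 and 6.20. miR-487b, miR-376b-3p, miR-136* and miR-667* come from the imprinted Dlk1-Dio3 cluster, whose miRNAs are abundant in fetal and mesenchymal tissue, and their differences were -0.36 (SE 0.20), -0.27 (SE 0.16), -0.25 (SE 0.16) and -0.21 (SE 0.13). All 4 were above 0 in males at day 3, at 0.18 to 0.38, and under 0 in the other 3 combinations. miR-23a*, from the hairpin cluster of miR-27a, had -0.11 (SE 0.07), and miR-196a, encoded within Hox gene clusters, -0.26 (SE 0.17). Single arrays carried part of these values. Without replicate 5 of the rosiglitazone females at day 3, the difference was -0.15 for miR-376b-3p and -0.17 for miR-136*. For miR-196a it was -0.17 without replicate 5 of the pioglitazone females at day 90.

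All 20 of these miRNAs kept the sign of their difference without the low arrays. Centring each array on its median could not change a sign here. With equal groups it moves every difference by the same amount, which is smaller than any of these 20. For 16 of them the 95% interval lay within -1 to 1. The exceptions were miR-222, miR-223, miR-142-5p and miR-451. A difference of one sign in 4 of 4 combinations was found for 6 of the 20, and for 26 of all 301 miRNAs (8.64%). Since the 20 were chosen by their p in this comparison, nothing further is read from that count.

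**Figure D3:**
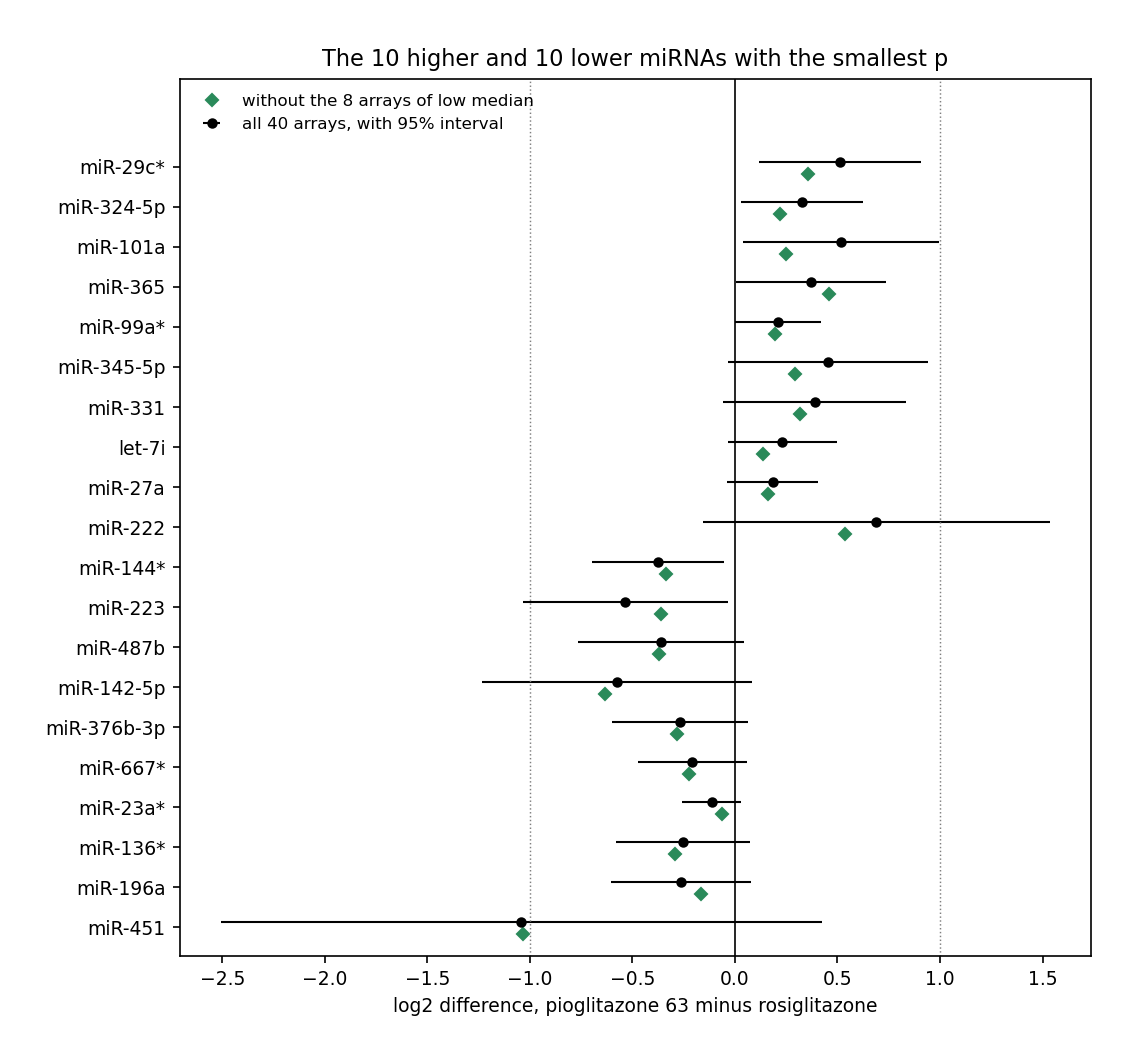
Log2 difference, pioglitazone 63 minus rosiglitazone (horizontal axis), of the 10 higher and 10 lower miRNAs with the smallest p, in order of p, with 95% intervals over 40 arrays (circles) and the difference without the 8 low arrays (diamonds). Intervals of 7 of the 20 leave out 0 before adjustment, and the interval of miR-451 is the widest.

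By time, limma again called 0 miRNAs at day 3 and 0 at day 90 (percent called 0 in each), with lowest adjusted p-values of 0.966 and 0.988. An unadjusted p under 0.05 was reached by 7 miRNAs at day 3 (2.33%), all higher with pioglitazone, and by 1 at day 90 (0.332%). miR-324-5p, with a difference of 0.50 (SE 0.18), and miR-326, with 0.65 (SE 0.26), came first at day 3. miR-144*, with -0.47 (SE 0.23), and miR-674-5p, with -0.20 (SE 0.10), came first at day 90. Without the low arrays 18 miRNAs at day 3 and 3 at day 90 had an unadjusted p under 0.05, and 0 passed.

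Tested directly, the change of the drug difference from day 3 to day 90 passed the threshold for 0 miRNAs (percent called 0; lowest limma adjusted p 0.971), and 3 had an unadjusted p under 0.05 (0.997%). miR-326 changed sides, with 0.30 and 1.01 in females and males at day 3 against -0.26 and -0.15 at day 90, a change of -0.86 (SE 0.36). In males at day 3 its arrays read 5.27, 4.32, 4.94, 4.85 and 4.95 with pioglitazone and 4.39, 4.58, 3.29, 3.36 and 3.69 with rosiglitazone. The 2 values under 3.4 were the low arrays of that group. miR-455*, from the hairpin of miR-455, had a change of -1.32 (SE 0.57).

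By sex, 0 miRNAs passed in females and 0 in males (percent called 0 in each; lowest limma adjusted p 0.994 and 0.995). An unadjusted p under 0.05 was found for 9 miRNAs in females (2.99%), 2 higher and 7 lower, and for 5 in males (1.66%), all higher. Smallest p-values in females were those of the Dlk1-Dio3 members miR-136*, with -0.55 (SE 0.21), and miR-487b, with -0.64 (SE 0.26). In males it belonged to miR-101a, with 0.84 (SE 0.33), and let-7i, with 0.44 (SE 0.18). The difference between males and females in the drug difference passed for 0 miRNAs (percent called 0; lowest limma adjusted p 0.996), with 2 at an unadjusted p under 0.05 (0.664%). These were miR-431, at 0.44 (SE 0.18), and miR-411*, at 0.63 (SE 0.27), both of the Dlk1-Dio3 cluster and both with means under 4.

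Females at day 3 had the most miRNAs at an unadjusted p under 0.05, 29 (9.63%), of which 20 were lower and 9 higher with pioglitazone, but 0 passed after adjustment (percent called 0; lowest limma adjusted p 0.171). let-7e, transcribed together with miR-99b and miR-125a, read 11.73, 11.78, 11.85, 11.86 and 11.63 with pioglitazone and 10.74, 11.07, 10.75, 11.37 and 9.23 with rosiglitazone. Every pioglitazone array lay above every rosiglitazone array. The difference was 1.14 (SE 0.30; limma adjusted p = 0.171), and vehicle arrays read 11.07, 11.26, 11.02, 10.81 and 11.04. The same miRNA had a difference of -0.26 in day-3 males, -0.54 in day-90 females and 0.35 in day-90 males. miR-324-5p read 7.79, 8.39, 8.96, 8.77 and 9.17 with pioglitazone and 7.82, 7.81, 7.61, 7.57 and 7.84 with rosiglitazone, a difference of 0.89 (SE 0.26; limma adjusted p = 0.171). Its lowest pioglitazone array overlapped the rosiglitazone arrays.

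In the same females, miR-205, a miRNA of stratified epithelium, read 12.64, 10.36, 12.44, 10.75 and 10.71 with pioglitazone and 12.92, 12.33, 12.80, 13.50 and 14.14 with rosiglitazone. The red cell miRNA miR-451 read 8.38, 7.87, 4.59, 5.53 and 3.38 against 9.70, 10.44, 7.54, 9.36 and 11.14. Both were chosen after their values were seen, and both had lower means with pioglitazone with overlapping arrays. Groups of 5 that did not overlap were found for 3 miRNAs (0.997%), let-7e and miR-3085 higher and miR-207 lower. miR-3085 read 3.79 to 5.61 against 3.45 to 3.73, and miR-207 read 3.02 to 3.12 against 3.14 to 3.28, near the floor of the arrays. The combination held 2 low arrays with pioglitazone and 0 with rosiglitazone. Summed muscle miRNAs had a median of 14.52 with pioglitazone and 12.99 with rosiglitazone, and summed red cell miRNAs 8.28 and 10.03. Their part in the differences was not tested. Without the 2 low arrays the let-7e difference was 1.16 and 0 miRNAs passed, and 20 had an unadjusted p under 0.05.

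Males at day 3 gave the lowest adjusted p of all combinations. limma called 0 miRNAs (percent called 0), and 10 had an unadjusted p under 0.05 (3.32%). miR-455, described in cartilage and brown fat in mouse, read 5.14, 4.66, 5.03, 4.80 and 5.49 with pioglitazone and 3.86, 4.11, 3.71, 3.47 and 3.42 with rosiglitazone. The groups did not overlap, and vehicle arrays read 4.40, 4.67, 4.52, 4.51 and 5.23, all above the rosiglitazone arrays. The difference was 1.31 (SE 0.32, 95% interval 0.65 to 1.97; limma adjusted p = 0.0891), whereas females had -0.19 on day 3 and 0.16 on day 90 and males -0.21 on day 90. Without the 2 low rosiglitazone arrays it was 1.23 (limma adjusted p = 0.163), and with arrays weighted by their quality 1.26 (limma adjusted p = 0.00332). With miR-24-2*, miR-27a and miR-345-5p, all higher with pioglitazone, 4 miRNAs had groups that did not overlap (1.33%). miR-27a read 12.15, 11.71, 11.94, 12.10 and 12.08 against 11.68, 11.53, 11.45, 11.33 and 11.09. Summed muscle miRNAs had a median of 14.28 with pioglitazone and 10.88 with rosiglitazone in these males, and their part was not tested.

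miR-598-5p in the same males was near the floor in all 5 pioglitazone arrays, at 3.14, 3.14, 3.28, 3.23 and 3.42, while rosiglitazone arrays read 3.43, 5.54, 3.14, 3.41 and 4.36. The difference of -0.73 (SE 0.25; limma adjusted p = 0.504) rested on the 2 rosiglitazone arrays at 5.54 and 4.36. Without the low arrays, which removed values of 3.14 and 3.41 from the rosiglitazone group, it was -1.20 and passed (limma adjusted p = 0.0250), the 1 call of that setting. The 5 vehicle arrays read 3.09 to 3.35.

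At day 90, 0 miRNAs passed in females and 0 in males (percent called 0 in each; lowest limma adjusted p 0.975 and 0.551), and an unadjusted p under 0.05 was found for 6 in females (1.99%) and 15 in males (4.98%). miR-351 and miR-3563-5p led in females. Both rested on 1 pioglitazone array, replicate 5, at 5.24 and 6.17, while the other 4 read 3.11 to 3.49 and 3.12 to 3.35 and the rosiglitazone arrays 2.99 to 3.48 and 3.00 to 3.24. Non-overlapping groups were found for 0 miRNAs in females (0%) and for 1 in males (0.332%), miR-17-1-3p, higher with pioglitazone at 3.30 to 3.52 against 3.04 to 3.25.

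miR-378, hosted in mouse by the gene for the PPAR gamma coactivator PGC-1 beta, and miR-101a led in day-90 males. miR-378 read 8.66, 10.52, 9.17, 10.62 and 10.06 with pioglitazone and 8.61, 8.90, 7.06, 9.74 and 8.24 with rosiglitazone, a difference of 1.30 (SE 0.45; limma adjusted p = 0.551). The pioglitazone values of 10.62 and 10.06 and the rosiglitazone value of 7.06 come from low arrays, and without those arrays the difference was 0.58. miR-101a had 1.26 (SE 0.47), and 0.28 without them. Without them 1 miRNA, in place of 15, had an unadjusted p under 0.05. Both groups then held fewer arrays, so these counts were not reached at equal power. Summed red cell miRNAs had a median of 6.63 with pioglitazone and 8.24 with rosiglitazone, and summed muscle miRNAs 11.05 and 10.97. Their part was not tested.

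**Figure D4:**
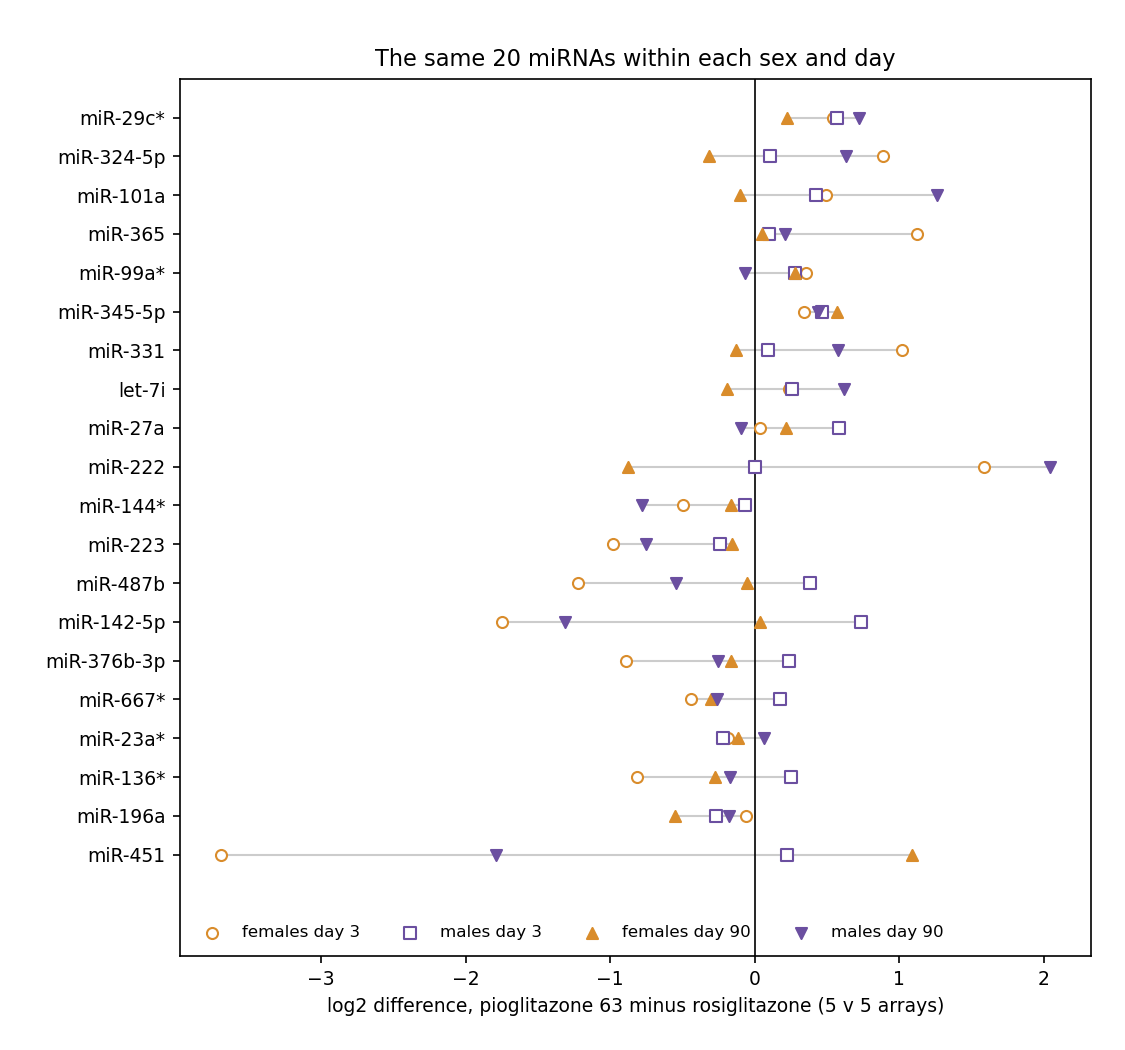
Log2 difference, pioglitazone 63 minus rosiglitazone (horizontal axis), of the same 20 miRNAs within each sex and day, 5 against 5 arrays, with open symbols for day 3 and filled symbols for day 90. Only 6 miRNAs keep 1 sign in all 4 combinations, and miR-451 spreads from -3.69 to 1.09.

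Described by group, 0 members of any of the 23 lists passed, and no list's members are called different from the 301 miRNAs as a whole, whose median difference was 0.02. Of all 301 miRNAs 165 were above and 136 under 0, and 2.33% had an unadjusted p under 0.05, which is the background for the counts below. Lists for the drugs' receptor and for fat cells were centred near 0. The 4 miRNAs described to target Pparg, miR-27a, miR-27b, miR-130a and miR-130b, had 3 differences above and 1 under 0 with a median of 0.10, and all 4 intervals lay within -1 to 1. Of the 29 adipocyte miRNAs 14 were above and 15 under 0 (median -0.01), with 1 at an unadjusted p under 0.05, miR-365, and 21 intervals within -1 to 1. miR-210, the hypoxia miRNA, had 0.46 (SE 0.33), and -0.02 without the low arrays.

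Of 13 miRNAs from hairpins of the growth-restraining let-7 family, 12 were above 0 and 1 under (median 0.18), from -0.03 to 0.46. None had an unadjusted p under 0.05, and 12 intervals lay within -1 to 1. Without the low arrays, let-7b at -0.13 and let-7c at -0.06 were under 0 and the other members above. In that setting let-7a fell from 0.18 to 0.02 and let-7f from 0.26 to 0.11, while let-7e rose from 0.17 to 0.24. The main strands share most of their sequence, so their array signals need not be independent. The list also holds the opposite strands let-7a-1*, let-7b*, let-7d*, let-7e* and let-7f-1*, which do not carry the let-7 seed. Of the 13, 4 had a mean under 4, all of them opposite strands. All 9 members of the miR-99/100 and miR-125 families, several of which are transcribed with let-7 members, were above 0 (median 0.17, from 0.01 to 0.40), with miR-99a* at an unadjusted p under 0.05. The 5 members of the miR-29 family had a median of 0.04 and miR-29c* the highest value, 0.51. The miR-17-92 group with its paralogs, whose members promote proliferation, had 9 members above and 4 under 0 (median 0.10), and the miR-15/16 family, which restrains the cell cycle, 2 above and 5 under (median -0.09). The 7 p53-responsive miRNAs had a median of 0.09, led by miR-192 at 0.51 (SE 0.33).

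Among lists that mark cell types, muscle had the highest median of those with more than 2 members, 0.34, with 8 of 9 members above 0 and 0 at an unadjusted p under 0.05. miR-145 led with 1.11 (SE 0.81, 95% interval -0.53 to 2.76), and only 3 of the 9 intervals lay within -1 to 1. Without the low arrays the miR-145 difference was 0.61 and the list median 0.19, with 8 of 9 members still above 0. By day and sex, 9 of 9 members were above 0 at day 3 (median 0.64) but 3 at day 90 (median -0.08), and 8 in males (median 0.65) but 4 in females (median -0.02), and these contrasts of the list were not tested. The epithelial list had 2 members above and 11 under 0 (median -0.10, from -0.71 for miR-96 to 0.09 for miR-141), and miR-205 had -0.39 (SE 0.32). With the low arrays left out, 7 epithelial members were above and 6 under 0 (median 0.00), and at day 90 9 were above and 4 under (median 0.08). All 3 red cell miRNAs were under 0 (median -0.38), as were 4 of 5 leukocyte miRNAs (median -0.38), with miR-144* and miR-223 at an unadjusted p under 0.05. Without the low arrays the red cell list was again under 0 in 3 of 3 members (median -0.39), and the leukocyte list in 3 of 5 (median -0.25). The 4 mesenchymal miRNAs spread from -0.42 for miR-214 to 0.52 for miR-199a-5p, and the endothelial pair miR-126 and miR-126* lay at 0.27 and -0.29. Of the 8 injury-response miRNAs 6 were under 0 (median -0.27), with miR-21 at -0.25 and miR-31 at -0.46. The Dlk1-Dio3 list had 15 members above and 17 under 0 (median -0.01), and 31 of its 32 intervals lay within -1 to 1, although 18 of the 32 had a mean under 4.

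**Figure D5:**
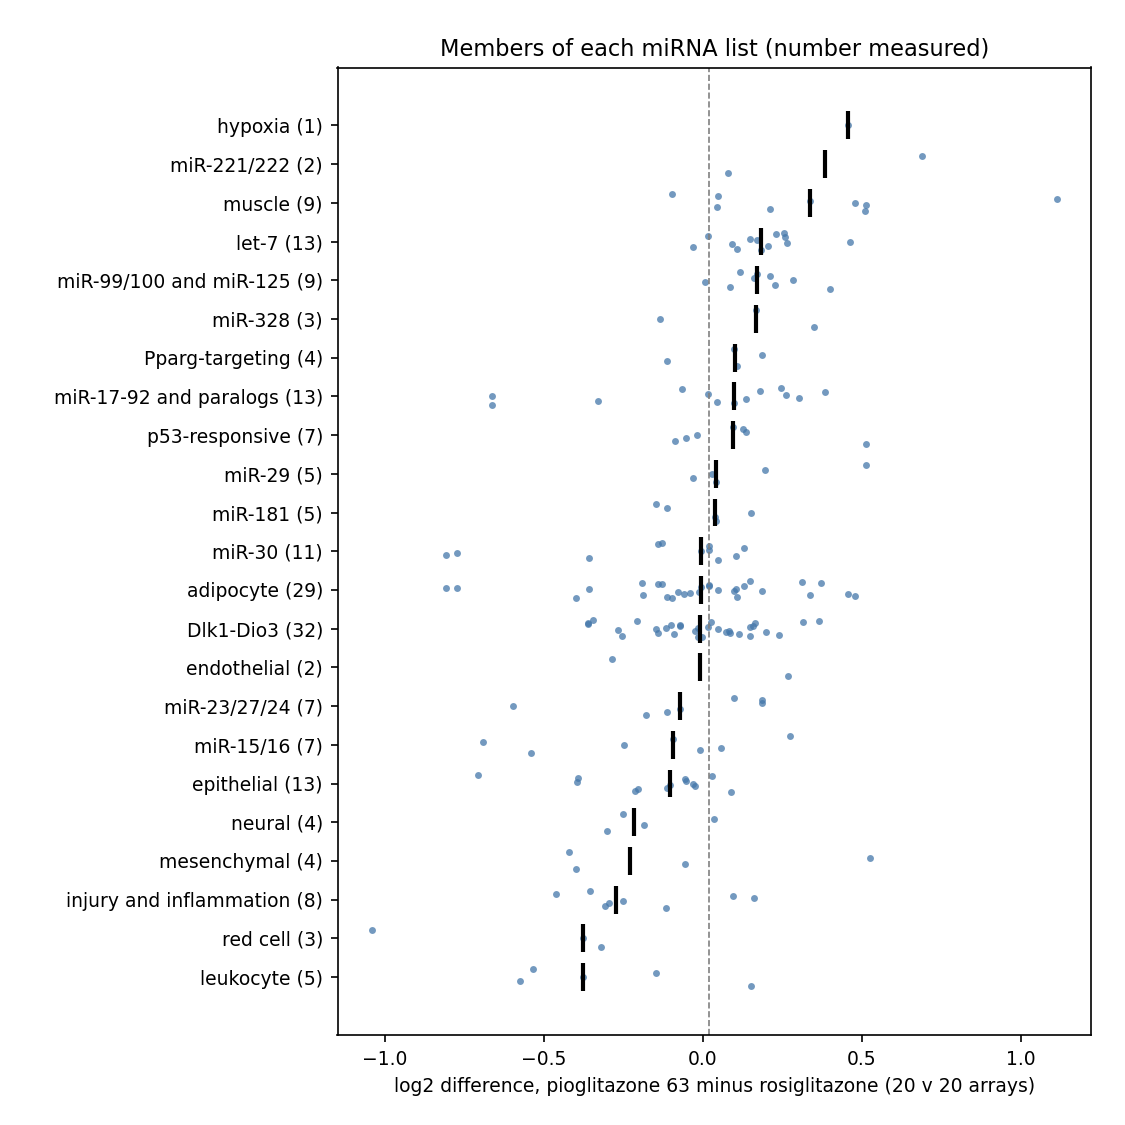
Log2 difference, pioglitazone 63 minus rosiglitazone, over 20 against 20 arrays (horizontal axis) of each member (points) of 23 miRNA lists (vertical axis, number measured in brackets), with the list median as a bar and the median of all 301 miRNAs, 0.02, as a dashed line. Members of most lists lie on both sides of 0, and 0 of them passed the test.

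Comparisons of each drug with vehicle share the 20 vehicle arrays and are given side by side only. Of the vehicle arrays 3 were low, all from females, with medians of 3.74 and 4.55 at day 3 and 3.70 at day 90. The distances below include them, and their part in these distances was not tested. limma, fitted to 60 arrays, called 0 miRNAs for pioglitazone 63 minus vehicle (percent called 0; lowest adjusted p 0.184) and 0 for rosiglitazone minus vehicle (percent called 0; lowest adjusted p 0.996). An unadjusted p under 0.05 was found for 9 (2.99%) and 6 (1.99%). miR-365 had the smallest p with pioglitazone, at 0.70 (SE 0.19; limma adjusted p = 0.184), beside 0.33 (SE 0.19) with rosiglitazone. miR-667* followed with -0.43 (SE 0.14) beside -0.22 (SE 0.14). With rosiglitazone the smallest p belonged to miR-375, at -0.30 (SE 0.12) with either drug, and to miR-142-3p, at -0.61 (SE 0.24) beside -0.46 (SE 0.24) with pioglitazone. For miR-29c* the distance from vehicle was 0.52 (SE 0.24) with pioglitazone and 0.00 (SE 0.24) with rosiglitazone, and for let-7i -0.01 (SE 0.11) and -0.24 (SE 0.11). For miR-223 it was -0.47 (SE 0.23) and 0.06 (SE 0.23).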

How the data were processed

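The deposited values of 301 miRNAs are on a log2 scale. RMA and limma appear, with no version or role, per the submitters' processing notes, and further steps were not described in the labels. The members and lists were chosen with earlier results of these data known. Of the values as deposited, 40 arrays entered limma 3.58.1 in R 4.3.3 with drug, day and sex as additive terms (36 residual and 2.10 prior degrees of freedom), and contrasts within sex or day used 8 group means. P-values were two-sided and Benjamini-Hochberg adjusted over 301 miRNAs within each of 13 contrasts, with a threshold of 0.05. Scripts were tested on simulated data. Summed levels are log2 of summed linear values. Named miRNAs were the 10 higher and 10 lower with the smallest p over both days and, for every other contrast, the 2 with the smallest p, plus 2 per list and cell type markers. Those of groups without overlap and of vehicle comparisons were named after their values were seen. A low array had a median under 4.9, a limit set after the data were seen. Replicate numbers did not pair arrays: over 20 same-numbered pairs, correlations of deviations from group means ran from -0.776 to 0.706 (median 0.04). RefSeq tables supplied sequences. Alternatives changed scaling, filter, blocks, variance model, array weights, arrays in the fit and single arrays.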

Additional observations from a re-analysis of the deposited data

Results flagged for a closer look

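The 20 miRNAs named over both days and the array median were examined in each of 8 groups, and the leading miRNAs of a sex and day combination in its own groups. Of these 180 sets of 5 arrays, 19 held 1 array far from the other 4 by Dixon's test, on 9 arrays, and 10 of the 19 lay on arrays of low median. Chance flags about 1 in 20 sets that are independent and normally distributed. These sets reuse the same arrays, so that rate is not a measure of an excess here. No explanation was tested.

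Replicate 3 of the rosiglitazone males at day 90 stood apart with an array median of 3.80, let-7i at 10.53, miR-144* at 5.78, miR-27a at 12.14, miR-331 at 4.25 and miR-451 at 3.75. Replicate 3 of the rosiglitazone females at day 90 stood apart with an array median of 3.80 and miR-223 at 8.80. Replicate 4 of the rosiglitazone males at day 3 stood apart with miR-196a at 7.30 and miR-331 at 8.41. All of these are low arrays.

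Replicate 5 of the pioglitazone females at day 90, not counted as low, had an array median of 5.12, miR-142-5p at 3.67, miR-351 at 5.24 and miR-3563-5p at 6.17. The other 4 arrays of that group read 3.12 to 3.35 for miR-3563-5p. Single values were miR-223 at 9.74 in replicate 1 and miR-27a at 10.83 in replicate 5 of the rosiglitazone females at day 3, and miR-331 at 8.11 in replicate 1 of the rosiglitazone females at day 90. The last 2 were miR-345-5p at 7.89 in replicate 2 of the pioglitazone males and miR-667* at 4.47 in replicate 5 of the rosiglitazone males, both at day 90.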

How the results depend on the processing

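Of 453 recounted numbers of called miRNAs, 445 stayed at 0. For the 20 miRNAs named over both days, all 1012 recomputed differences over both days kept their sign and their side of the threshold. Named miRNAs of single combinations and of the vehicle comparisons were not in that count. Some of them crossed the threshold, as the following calls show. With array weights, males at day 3 gave 5 calls (miR-455, miR-702-3p, miR-27a and miR-484 higher, miR-598-5p lower), pioglitazone minus vehicle 3 (miR-365 higher, miR-218 and miR-181c lower) and rosiglitazone minus vehicle 7, among them miR-99a and miR-218 lower. Males at day 3 gave 1 call, miR-598-5p, without the low arrays and 1 with centring added, both chosen after seeing the data. Leaving out 1 array gave 0 to 1 calls in females at day 3: miR-324-5p without pioglitazone replicate 1, miR-431 without pioglitazone replicate 4 and let-7e without rosiglitazone replicate 4. It gave 0 calls elsewhere. The cause was not tested. The drug difference in array medians, -0.01, was 0.0031 for array means, 0.0858 for 75th percentiles, 0.00355 without the low arrays and -0.0985 to 0.0401 without single arrays. Centring moved the median difference of all miRNAs from -0.01 to 0.33 in females at day 3, 0.17 to -0.11 in males at day 3, 0.04 to -0.24 in females at day 90 and -0.05 to 0.23 in males at day 90. With the replicate block, 0 miRNAs were called in each contrast (lowest adjusted p over both days 0.962), and 4 of 20 arrays correlated best with their own number. Signal over background was not given, and 82 of 301 miRNAs had a mean under 4, where differences are compressed.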
